A study of Mus musculus with 8 samples.

Results

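Growth factor receptors of the liver were followed in RNA sequencing libraries of mice whose Foxo1 gene was knocked out in the liver and of wildtype mice. FOXO1 is a forkhead factor that leaves the nucleus when insulin signals. The genes were picked by name, with earlier results of these data known. They comprised the receptor genes Egfr, Erbb2, Erbb3, Met, Fgfr4 and Fgfr2, the FGF co-receptor gene Klb and Errfi1, whose product inhibits EGFR. They were 8 of the 25690 genes in the deposited table. The 4 knockout libraries are named here by their title numbers 3, 9, 10 and 11, and the 4 wildtype libraries by theirs, 1, 3, 10 and 12. Values by library follow these orders throughout. Both groups were liver tissue of Mus musculus and differed in the labels by genotype. Nothing in the labels says that libraries of 1 group came from separate animals, and p-values therefore cover the spread between libraries, which may be technical. The labels used here give no strain, age, sex, feeding state or driver of the deletion.

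Receptor tyrosine kinases pass the arrival of a ligand at the cell surface to the RAS-ERK cascade and other pathways inside the cell. In hepatocytes EGFR and MET, the receptor of hepatocyte growth factor, are known for driving growth in the regenerating liver. FGFR4 with its co-receptor KLB receives the gut hormone FGF15 and restrains bile acid synthesis.

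Values are FPKM, fragments scaled to transcript length and library depth, so levels can be compared between genes. Depth was estimated at 26.8 M to 35.6 M fragments per library. Foxo1 was at 0.269 ± 0.0743 FPKM in knockout and 3.35 ± 0.341 FPKM in wildtype liver (SD, n = 4 each). Of the 11 hepatocyte markers examined each was above 0 throughout, except that Alb is listed at 0 in knockout 10. Knockouts 3 and 11 stood apart: the median log2 deviation of 30 acute phase genes from the wildtype mean was 2.14 and 1.77 in knockouts 3 and 11, 0.13 and 0.14 in knockouts 9 and 10, and between -0.04 and 0.08 in wildtype libraries. The summed level of 10 lymphocyte and neutrophil markers was 58.2, 4.63, 8.06 and 138 FPKM in the knockout libraries and 4.01, 5.81, 2.88 and 6.38 FPKM in the wildtype libraries, so it too was high in knockouts 3 and 11, with 1 or 2 of the markers at 0 in each library. The part of these genes and cells in the receptor values was not tested. The changes of Egfr, Klb, Met, Fgfr2, Fgfr1, Nrg4 and Cyp7a1 are also given without these libraries. In bulk tissue, fewer cells of a type and less RNA per cell cannot be told apart.

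Changes were tested with limma on log2(FPKM + 1) over all 10250 genes whose mean reached 1 FPKM, and p-values were adjusted by Benjamini-Hochberg over all of them. With the added 1, log2 changes of low genes come out too small. Of the 8 genes 7 were tested, since Erbb2 lay under the filter. Of these 1 rose and 1 fell at an adjusted p under 0.05: Egfr was higher in the knockout liver and Klb was lower. Among all tested genes 2.70% were called higher, 11.7% lower and 14.4% in either direction. An unadjusted p under 0.05 in limma was reached by 3126 of the 10250. The median log2 change was -0.11 over the 7 genes and -0.08 over all tested genes.

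The promoters of Egfr and Klb, which changed in opposite directions, and of Fgfr4, the partner of KLB, are shown because the series concerns a transcription factor. Each run covers 250 bases before and 50 bases after the annotated start, 5′ to 3′ on the plus strand, from RefSeq on GRCm38.p6, the build also called mm10. Capitals mark the 50 bases from the start. The intervals are chr11:16751953-16752252 for Egfr, chr5:65348161-65348460 for Klb and chr13:55152568-55152867 for Fgfr4.
Egfr: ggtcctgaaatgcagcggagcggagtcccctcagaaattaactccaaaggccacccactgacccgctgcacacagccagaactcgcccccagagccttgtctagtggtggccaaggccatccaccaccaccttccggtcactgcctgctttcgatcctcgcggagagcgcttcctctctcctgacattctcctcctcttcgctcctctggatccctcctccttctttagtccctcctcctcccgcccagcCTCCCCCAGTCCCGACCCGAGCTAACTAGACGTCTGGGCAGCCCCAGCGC
Klb: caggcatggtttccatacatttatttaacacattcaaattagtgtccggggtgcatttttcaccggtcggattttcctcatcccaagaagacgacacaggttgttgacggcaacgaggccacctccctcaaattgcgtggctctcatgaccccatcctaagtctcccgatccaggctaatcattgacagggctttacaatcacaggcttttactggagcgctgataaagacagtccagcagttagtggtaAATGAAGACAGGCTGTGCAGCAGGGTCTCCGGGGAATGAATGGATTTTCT
Fgfr4: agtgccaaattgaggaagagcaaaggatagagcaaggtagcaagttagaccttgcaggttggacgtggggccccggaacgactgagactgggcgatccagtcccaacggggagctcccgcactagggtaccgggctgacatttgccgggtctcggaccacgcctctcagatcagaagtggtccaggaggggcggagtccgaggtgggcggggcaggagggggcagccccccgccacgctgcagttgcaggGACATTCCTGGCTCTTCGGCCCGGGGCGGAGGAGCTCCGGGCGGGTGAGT

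Promoter entries were matched for 7 of the 8 genes, and Errfi1 had more than 1. Motifs were searched on both strands. The first was GTAAACA, the FoxO consensus. The second was CAAAACA, known from insulin response elements. The third was TTCNNNGAA, the palindromic site of STAT5. The first and the second end in the same letters, AAACA, and cannot match at the same place. No match occurred in the promoter windows of Egfr, Klb, Fgfr4, Met, Erbb2, Fgfr2 and Errfi1. Over the 32851 promoter windows in the reference 3.65% held the first motif, 6.28% the second and 8.3% the third. G and C made up 62.3% of the Egfr window, 48.3% of the Klb window and 65.3% of the Fgfr4 window, against a median of 52.7% over all windows.

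Egfr encodes the receptor of epidermal growth factor and transforming growth factor alpha (ENSMUSG00000020122, chromosome 11, 16752203 to 16918158, mm10, plus strand). Its level was 145, 109, 96.2 and 87.3 FPKM in the knockout libraries, against 52.7, 79.9, 61.9 and 51.6 FPKM in the wildtype libraries. The groups did not overlap: the lowest knockout library lay above the highest wildtype library. Among all tested genes 21.3% had groups that did not overlap. The mean was 109 ± 25.3 FPKM in knockout and 61.5 ± 13.1 FPKM in wildtype liver (SD, n = 4 each), a ratio of 1.78. On the log2(FPKM + 1) scale Egfr rose by 0.82 (SE 0.18, 95% interval 0.40 to 1.23, limma adjusted p = 0.0188). It did not pass without wildtype 1 (log2 change 0.75, limma adjusted p = 0.0617) or without wildtype 12 (0.74, 0.0543). Without knockouts 3 and 11 together the log2 change was 0.75 (limma adjusted p = 0.0485).

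Hepatic Egfr is known to depend on growth hormone in mice, and genes with male-biased expression in liver, which follow growth hormone, were therefore set beside it. Of 18 tested male-biased genes 5 rose and 0 fell (limma), namely Moxd1, Cyp7b1, Serpina1e, Susd4 and Selenbp2. The share called was 27.8%, against 2.70% called higher and 14.4% in either direction among all tested genes. Of 18 alternatives Serpina1e passed in 12, Susd4 in 9 and Selenbp2 in 8. The median log2 deviation of the list from the wildtype mean was 0.14, 0.81, 0.66 and 0.17 in the knockout libraries and -0.23, 0.26, -0.02 and 0.00 in the wildtype libraries. The deviation of Egfr was 1.24, 0.84, 0.66 and 0.52 in the knockout libraries and -0.20, 0.39, 0.03 and -0.23 in the wildtype libraries. The list was highest in knockout 9 and Egfr in knockout 3, while in wildtype both were highest in library 3. The part of the male-biased genes in the Egfr result was not tested.

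**Figure D1:**
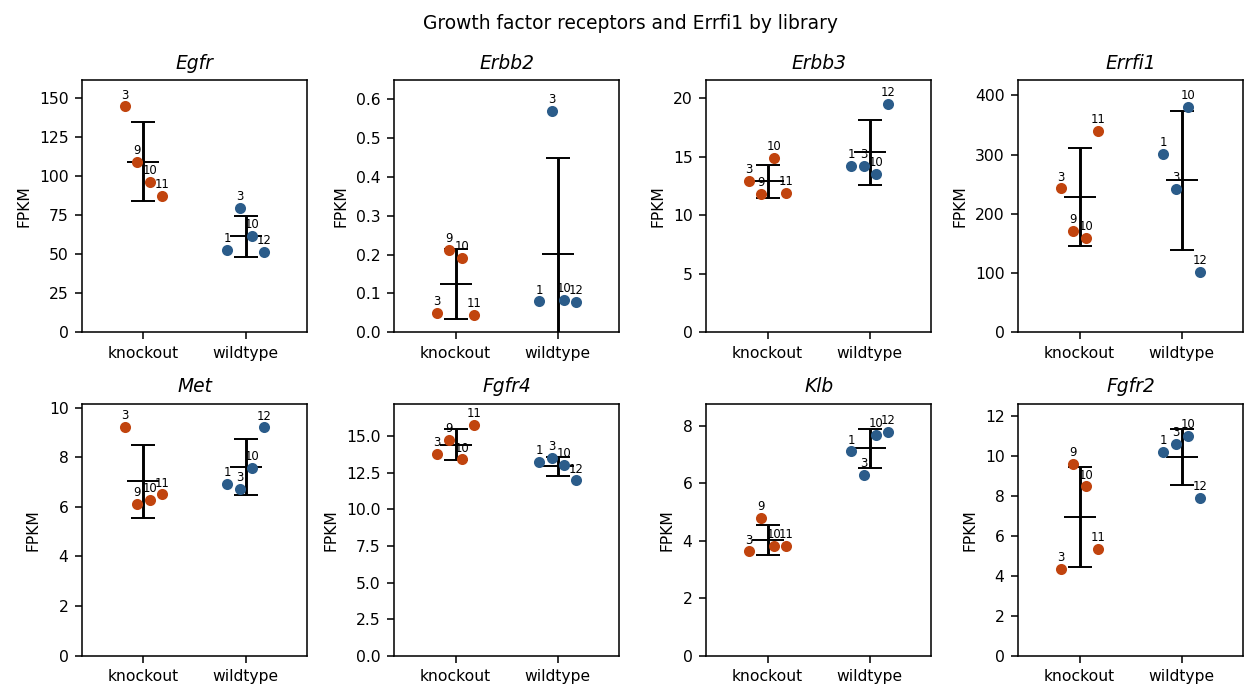
FPKM of each gene (vertical axes, from 0) in the 4 knockout libraries and the 4 wildtype libraries. Points are libraries with their title numbers, and bars are the mean and SD (for Erbb2 in wildtype the bar is cut at 0). Egfr at 87.3 FPKM or more in knockout lies above all wildtype libraries, and Klb at 4.79 FPKM or less in knockout lies below them.

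Errfi1, also called MIG6, encodes a feedback inhibitor that binds the EGFR kinase domain (ENSMUSG00000028967, chromosome 4, 150853919 to 150868892). It was the most abundant of the 8 transcripts, at 243, 171, 159.5 and 340.3 FPKM in the knockout libraries and 301, 243, 380.0 and 102 FPKM in the wildtype libraries. The groups overlapped along almost their whole range, and wildtype 12 was the lowest of all libraries. The log2 change was -0.08 (SE 0.39, 95% interval -0.96 to 0.79, limma adjusted p = 0.911). That interval leaves room for a change in either direction, and the sign differed between scalings: it was 0.03 with median-ratio scaling and 0.18 with quantile normalization. The ratio of Egfr to Errfi1 was 0.596, 0.64, 0.603 and 0.257 in the knockout libraries and 0.175, 0.33, 0.163 and 0.505 in the wildtype libraries, so the groups overlapped in this ratio too.

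Erbb3 encodes a neuregulin receptor with a weak kinase that signals as a partner of other ERBB receptors (ENSMUSG00000018166, chromosome 10, 128567523 to 128589652). It was at 12.96, 11.9, 14.9 and 11.9 FPKM in the knockout libraries and at 14.2, 14.2, 13.5 and 19.6 FPKM in the wildtype libraries. Knockout 10 lay within the wildtype range and wildtype 12 above the other wildtypes. Erbb3 did not pass (log2 change -0.23, 95% interval -0.52 to 0.06, limma adjusted p = 0.274).

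Erbb2 encodes the ERBB receptor that has no known ligand of its own (ENSMUSG00000062312, chromosome 11, 98412470 to 98437716). It was barely detected, at 0.0494, 0.211, 0.190 and 0.0438 FPKM in the knockout libraries and at 0.0795, 0.570, 0.0828 and 0.0781 FPKM in the wildtype libraries. At the estimated depths these levels amount to about 8 to 32 fragments per knockout library and 12 to 77 per wildtype library. Wildtype 3 was the highest, and without a filter on low values Erbb2 did not pass (log2 change -0.08, limma adjusted p = 0.776). Its downstream neighbour Grb7, an adaptor gene that starts 8678 bases beyond the end of Erbb2, was at 30.8 to 36.0 FPKM in knockout and 34.5 to 49.3 FPKM in wildtype liver. Erbb4, the remaining receptor of the family, was at most at 0.0163 FPKM in knockout and 0.00789 FPKM in wildtype libraries.

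Met (ENSMUSG00000009376, chromosome 6, 17463800 to 17573980) was at 9.23, 6.12, 6.29 and 6.498 FPKM in the knockout libraries and at 6.94, 6.72, 7.58 and 9.20 FPKM in the wildtype libraries. The highest library of each group, knockout 3 and wildtype 12, had nearly the same level. Met did not pass (log2 change -0.11, 95% interval -0.42 to 0.21, limma adjusted p = 0.658), nor with knockouts 3 and 11 left out (-0.25, limma adjusted p = 0.284). Relative to Met in the same library, a ratio that a single factor per library leaves as it is, Egfr was at 15.7, 17.8, 15.3 and 13.4 in the knockout libraries and at 7.60, 11.9, 8.16 and 5.61 in the wildtype libraries. The ratio showed unequal change of Egfr and Met, and the groups did not overlap.

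Klb encodes beta-Klotho, the co-receptor that lets FGFR4 bind FGF15 and lets FGF receptors bind FGF21 (ENSMUSG00000029195, chromosome 5, 65348314 to 65384007, plus strand). Its level was 3.63, 4.79, 3.82 and 3.81 FPKM in the knockout libraries, against 7.10, 6.29, 7.67 and 7.79 FPKM in the wildtype libraries. All knockout libraries lay below all wildtype libraries, and knockout 9 was the nearest to them. The mean was 4.01 ± 0.527 FPKM in knockout and 7.21 ± 0.681 FPKM in wildtype liver (SD, n = 4 each), a ratio of 0.556. On the log2(FPKM + 1) scale Klb fell by 0.71 (SE 0.10, 95% interval -0.95 to -0.48, limma adjusted p = 0.00466). It passed with each single library left out, with limma adjusted p between 0.00647 and 0.0215, and without knockouts 3 and 11 together (log2 change -0.63, limma adjusted p = 0.0292).

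Fgfr4, the main FGF receptor of hepatocytes (ENSMUSG00000005320, chromosome 13, 55152640 to 55168759), was at 13.8, 14.7, 13.4 and 15.8 FPKM in the knockout libraries and at 13.2, 13.5, 13.03 and 11.99 FPKM in the wildtype libraries. Knockout 10 lay just below wildtype 3, and the other knockouts lay above the wildtype range. Fgfr4 did not pass (log2 change 0.14, 95% interval -0.05 to 0.34, limma adjusted p = 0.291). The ratio of Klb to Fgfr4 was 0.263, 0.325, 0.284 and 0.242 in the knockout libraries and 0.536, 0.465, 0.588 and 0.650 in the wildtype libraries. In each knockout library KLB transcript was thus scarcer relative to its receptor partner than in any wildtype library.

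Fgfr2 encodes a receptor of several FGFs (ENSMUSG00000030849, chromosome 7, 130162451 to 130266808 in RefSeq on the same build, minus strand). The Ensembl gene runs on to 133123350 in GENCODE, a span that holds or overlaps 69 other genes. The overlap was counted on whole gene spans, exons were not compared, and its part in the Fgfr2 values was not tested. Fgfr2 was at 4.35, 9.60, 8.48 and 5.35 FPKM in the knockout libraries and at 10.2, 10.6, 11.03 and 7.90 FPKM in the wildtype libraries. Knockouts 3 and 11 were the lowest, and knockouts 9 and 10 lay within the wildtype range. Fgfr2 did not pass (log2 change -0.51, SE 0.21, limma adjusted p = 0.145), and without knockouts 3 and 11 the log2 change was -0.12 (limma adjusted p = 0.644).

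Stellate cells store vitamin A and, with fibroblasts, make matrix in the liver. Of their markers 12 were examined, and all were above 0 in every library. In limma 0 of the 5 tested passed and 1 had an unadjusted p under 0.05, as had 3126 of all 10250 tested genes. The summed level of the 12 markers was 31.8, 71.3, 51.9 and 36.7 FPKM in the knockout libraries and 58.7 to 69.7 FPKM in wildtype libraries. Knockouts 3 and 11 were lowest both in this sum, much of which is Dcn, and in Fgfr2. Wildtype 12, lowest of its group in Fgfr2, was also lowest of its group in Dcn, at 37.7 FPKM. Its marker sum was 59.1 FPKM and its median marker deviation from the wildtype mean 0.05. Dcn, the decorin gene and the most abundant marker of that list, was chosen after its values were seen. The ratio of Fgfr2 to Dcn was 0.232, 0.217, 0.286 and 0.231 in the knockout libraries and 0.261, 0.226, 0.253 and 0.210 in the wildtype libraries, so the groups overlapped. The part of these cells in the Fgfr2 values was not tested.

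**Figure D2:**
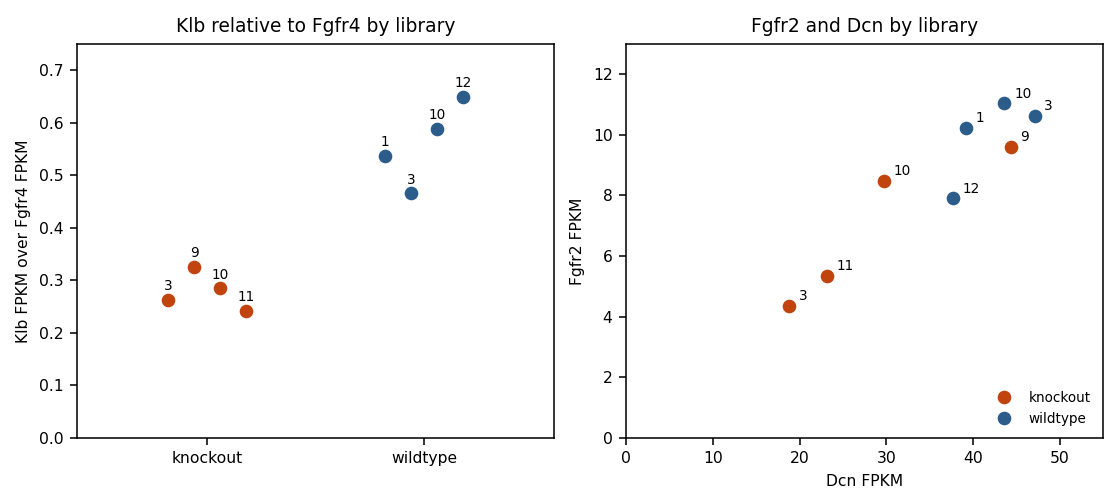
Left, FPKM of Klb divided by FPKM of Fgfr4 in each library, knockout beside wildtype. Right, Fgfr2 against Dcn, a gene chosen after its values were seen, both in FPKM, for the same 8 libraries. Points carry the title numbers. The knockout ratios of Klb to Fgfr4 end at 0.325 and the wildtype ratios start at 0.465, and knockouts 3 and 11 are lowest for both Fgfr2 and Dcn.

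Of the remaining FGF receptors Fgfr1 was higher in knockout liver and Fgfr3 did not pass. Fgfr1, which with KLB receives FGF21 in other tissues, was at 4.05, 1.9995, 1.91 and 3.18 FPKM in the knockout libraries and at 0.923, 1.02, 0.543 and 1.20 FPKM in the wildtype libraries. The groups did not overlap, and the highest levels were those of knockouts 3 and 11. Fgfr1 rose by 0.95 on the log2 scale (SE 0.19, limma adjusted p = 0.0125), and by 0.63 with knockouts 3 and 11 left out (limma adjusted p = 0.0470). Fgfr3 was at 6.26 ± 1.37 FPKM in knockout and 5.89 ± 0.898 FPKM in wildtype liver (SD, n = 4 each) and did not pass (limma adjusted p = 0.802). Of 9 other receptors and co-receptors of the ERBB and FGF families 6 were tested, of which 1, Fgfr1, rose and 0 fell. The share was 16.7%, against 14.4% of all tested genes.

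**Figure D3:**
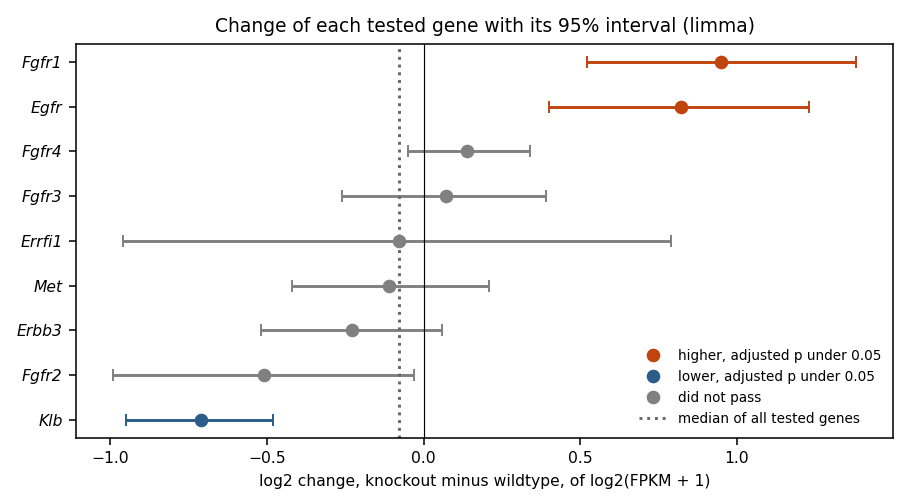
Log2 change of log2(FPKM + 1), knockout minus wildtype, with its 95% interval, for the 7 tested genes and for Fgfr1 and Fgfr3. The dotted line is the median of all tested genes, -0.08. Egfr, Fgfr1 and Klb passed the adjusted threshold, Fgfr2 lies at -0.51 without passing it, and the intervals of Erbb3, Met, Fgfr4 and Errfi1 cross 0.

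The order of levels was nearly the same in both groups. In knockout liver Errfi1 was followed by Egfr, Fgfr4, Erbb3, Met, Fgfr2, Klb and Erbb2, with means of 228, 109, 14.4, 12.9, 7.03, 6.95, 4.01 and 0.124 FPKM. Neighbours whose library ranges overlapped were Fgfr4 and Erbb3, Met and Fgfr2, and Fgfr2 and Klb. In wildtype liver the order was Errfi1, Egfr, Erbb3, Fgfr4, Fgfr2, Met, Klb and Erbb2, with means of 256, 61.5, 15.4, 12.9, 9.95, 7.61, 7.21 and 0.203 FPKM. There Erbb3 and Fgfr4, Fgfr2 and Met, and Met and Klb overlapped.

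Among 54 receptor tyrosine kinase genes examined Egfr had the highest mean in both groups. It made up 50.3% of their summed mean FPKM in knockout and 35.9% in wildtype liver. Fgfr4 and Erbb3 came next in knockout liver, at 6.64% and 5.94% of the sum, and in wildtype liver these genes held 7.56% and 8.99%. Epha1, an ephrin receptor gene, had rank 4 in each group. Of 44 kinases outside the ERBB, FGF and MET families 11 were tested, of which 1 rose and 1 fell. The share was 18.2%, against 14.4% of all tested genes. The neurotrophin receptor gene Ntrk2 was at 2.64, 4.44, 4.69 and 4.14 FPKM in the knockout libraries and at 1.34, 1.47, 1.99 and 2.02 FPKM in the wildtype libraries, with a log2 change of 0.87 (SE 0.16, limma adjusted p = 0.0091). The insulin receptor gene Insr was at 7.27 ± 0.410 FPKM in knockout and 9.33 ± 0.351 FPKM in wildtype liver (SD, n = 4 each, log2 change -0.32, limma adjusted p = 0.0274), and it passed in 9 of 18 alternatives. The call was lost with median-ratio scaling (limma adjusted p = 0.0684) and quantile normalization (0.0501), without knockouts 3 and 11 together (0.107), and without knockout 3 or 11 or wildtype 1, 10 or 12, each alone (0.0593 to 0.0861).

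**Figure D4:**
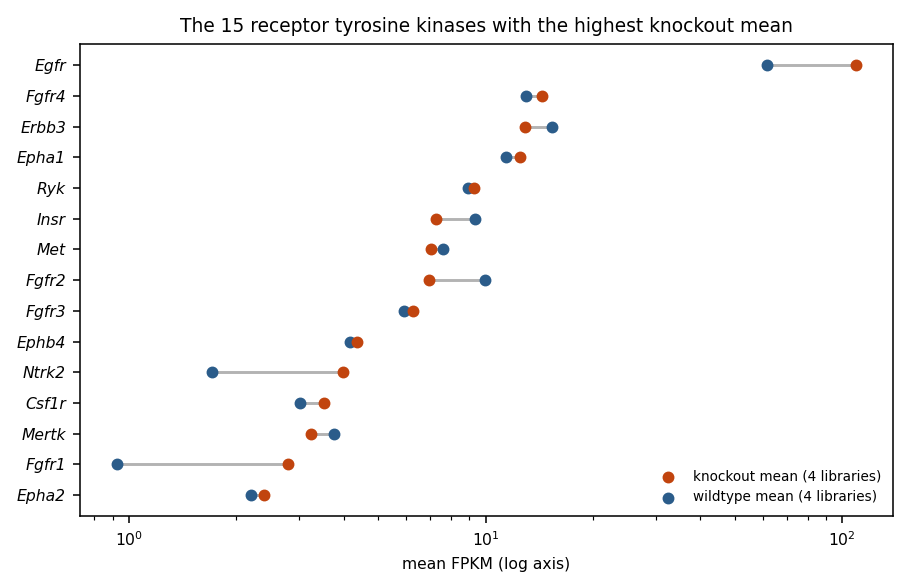
Mean FPKM, on a log axis, of the 15 receptor tyrosine kinase genes with the highest knockout mean, with the knockout and wildtype means joined by a line. Egfr is at 109 FPKM in knockout and 61.5 FPKM in wildtype liver, and the next gene, Fgfr4, is at 14.4 and 12.9 FPKM.

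Ligands of these receptors were mostly low in liver RNA. Of 11 EGF family ligands 2 were tested, Tgfa and Nrg4, and 0 passed in limma, while 1 had an unadjusted p under 0.05. Among all 10250 tested genes 3126 had such an unadjusted p. Tgfa was at 2.08 ± 0.303 FPKM in knockout and 1.74 ± 0.214 FPKM in wildtype liver (SD, n = 4 each, limma adjusted p = 0.318). The neuregulin gene Nrg4 was at 19.1, 3.08, 5.64 and 13.4 FPKM in the knockout libraries and at 2.70, 2.49, 3.75 and 3.67 FPKM in the wildtype libraries. Knockout 9 lay within the wildtype range, and Nrg4 did not pass (log2 change 1.19, limma adjusted p = 0.0979). With knockout 9 left out it passed (1.6, limma adjusted p = 0.0198), as it did when libraries were weighted (0.0326), and without knockouts 3 and 11 the log2 change was 0.34 (limma adjusted p = 0.376). Egf was at most at 0.139 FPKM in knockout and 0.171 FPKM in wildtype libraries, and Hbegf at 0.346 and 0.333 FPKM.

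Hgf, the ligand of MET and a product of stellate rather than parenchymal cells, was at 0.218, 0.572, 0.464 and 0.186 FPKM in the knockout libraries and at 0.442, 0.538, 0.516 and 0.638 FPKM in the wildtype libraries. As with Fgfr2, knockouts 3 and 11 were the lowest, while knockouts 9 and 10 lay within the wildtype range, and without a filter Hgf did not pass (limma adjusted p = 0.342). Of 11 genes of the HGF axis and the related MSP axis 4 were tested, the ligand activators Hgfac and Hpn, the inhibitor Spint2 and Mst1, and 0 passed in limma, with 0 at an unadjusted p under 0.05. Of 10 FGF ligands Fgf1 and Fgf21 were tested and 0 passed in limma, with 0 at an unadjusted p under 0.05. Among all 10250 tested genes 3126 had such an unadjusted p. Fgf1 was at 16.04 ± 2.07 FPKM in knockout and 15.5 ± 0.671 FPKM in wildtype liver (SD, n = 4 each). Fgf21, a hormone gene of the fasting response, was at 0.0777, 8.54, 2.24 and 0.621 FPKM in the knockout libraries and at 1.47, 2.28, 0.972 and 0.346 FPKM in the wildtype libraries. Fgf15, a product of the ileum, is listed at 0 in all 8 libraries.

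Inside the cell, 23 of 26 adaptors and members of the RAS-ERK cascade were tested, of which 1 rose and 1 fell, a share of 8.7% against 14.4% of all tested genes. Mapk3, which encodes ERK1, was at 21.8, 17.8, 19.3 and 17.9 FPKM in the knockout libraries and at 10.2, 11.9, 11.6 and 13.1 FPKM in the wildtype libraries. It rose by 0.67 on the log2 scale (SE 0.10, limma adjusted p = 0.00523). Hras, a RAS gene, was at 24.1 ± 0.739 FPKM in knockout and 37.4 ± 1.15 FPKM in wildtype liver (SD, n = 4 each) and fell by 0.61 (SE 0.07, limma adjusted p = 0.00305). The groups did not overlap for either gene.

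Of 28 genes that remove or dampen active receptors 19 were tested, of which 0 rose and 1 fell. The share was 5.26%, against 14.4% of all tested genes. Cblc encodes an E3 ubiquitin ligase that marks active EGFR for degradation. It was at 20.1, 23.0, 20.4 and 27.2 FPKM in the knockout libraries and at 31.0, 30.3, 31.7 and 30.8 FPKM in the wildtype libraries, with a log2 change of -0.44 (SE 0.10, limma adjusted p = 0.0228). All knockout libraries lay below all wildtype libraries. Cblc did not pass with median-ratio scaling (limma adjusted p = 0.0904), quantile normalization (0.0921) or the trend along transcript length removed (0.107), nor without knockout 3 (0.0599) or wildtype 1, 10 or 12, each alone (0.0525 to 0.0679).

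Genes known to respond to ERK activity moved in both directions. Of 18 such genes 12 were tested, of which 2 rose and 2 fell. The share was 33.3%, against 14.4% of all tested genes, with a median log2 change of -0.42. The cyclin D1 gene Ccnd1 was at 6.11, 7.22, 4.73 and 3.42 FPKM in the knockout libraries and at 0.869, 1.25, 0.776 and 0.909 FPKM in the wildtype libraries, with a log2 change of 1.67 (SE 0.18, limma adjusted p = 0.00231). Every knockout library lay above every wildtype library. Myc, an immediate early transcription factor gene, was at 6.94, 1.16, 6.10 and 2.02 FPKM in the knockout libraries and at 0.533, 0.680, 0.467 and 0.817 FPKM in the wildtype libraries (log2 change 1.44, limma adjusted p = 0.0346). Myc did not pass without a filter (limma adjusted p = 0.0893) or with a robust variance model (0.0567), without knockout 3 or 10 or any single wildtype library, each alone (0.0670 to 0.0861), or without knockouts 3 and 11 together (0.0986). Jun fell by 2.06 (SE 0.28, limma adjusted p = 0.00398). Mcl1, an anti-apoptotic BCL2 family gene, fell by 0.48 (SE 0.11, limma adjusted p = 0.0180), and did not pass with median-ratio scaling (0.0501), quantile normalization (0.0724) or without wildtype 1, 10 or 12, each alone (0.0503 to 0.0560). Dusp6, an ERK phosphatase gene on both this list and the preceding one, was at 2.56, 8.84, 4.30 and 7.66 FPKM in the knockout libraries and at 26.7, 17.2, 12.3 and 6.31 FPKM in the wildtype libraries, and did not pass (limma adjusted p = 0.0846). It was named after its values were seen.

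**Figure D5:**
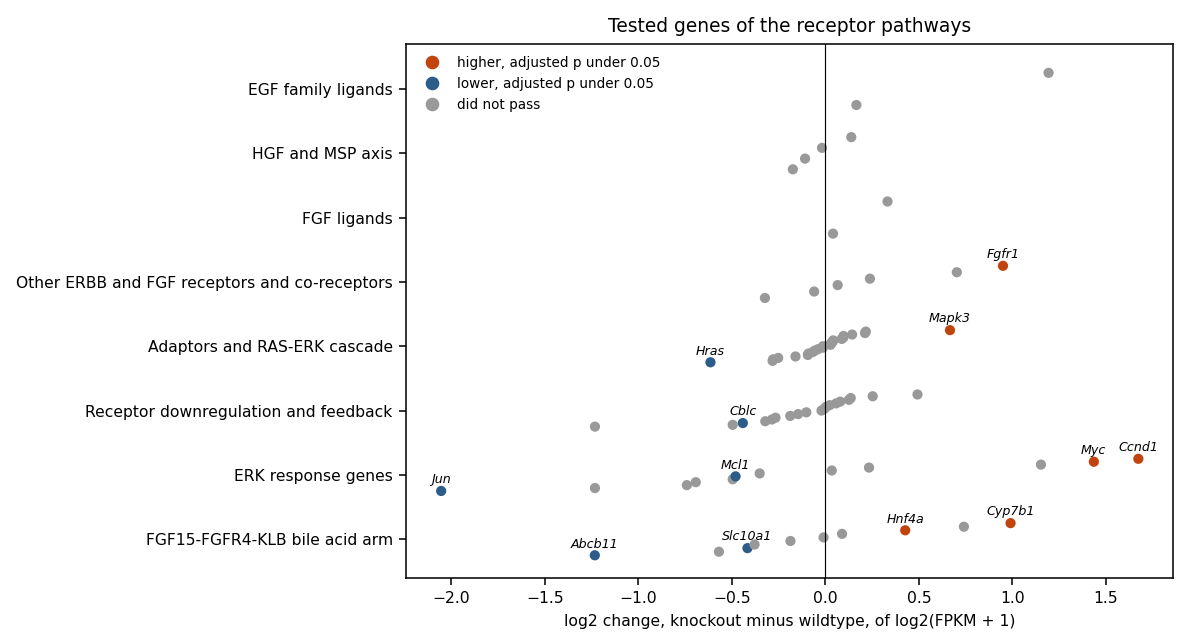
Log2 change of log2(FPKM + 1), knockout minus wildtype, of each tested gene (a point) in 8 lists of receptor pathway genes. Named points passed an adjusted p of 0.05. Fgfr1, Mapk3, Ccnd1, Myc, Cyp7b1 and Hnf4a are on the higher side, and Hras, Cblc, Jun, Mcl1, Abcb11 and Slc10a1 on the lower side.

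On the bile acid side of FGFR4 and KLB, 10 of 11 genes were tested, of which 2 rose and 2 fell. The share was 40.0%, against 14.4% of all tested genes, with a median log2 change of -0.10. Cyp7a1, the rate-limiting enzyme of bile acid synthesis that this receptor pair is known to restrain, was at 82.3, 32.1, 19.2 and 69.0 FPKM in the knockout libraries and at 20.8, 23.9, 31.8 and 27.1 FPKM in the wildtype libraries. It was high in knockouts 3 and 11 and did not pass (log2 change 0.74, limma adjusted p = 0.247), although it passed without knockout 10 (1.12, limma adjusted p = 0.0397), and without knockouts 3 and 11 together the log2 change was -0.04. Cyp8b1, the sterol 12-alpha-hydroxylase gene, and Nr0b2, which encodes the repressor SHP, did not pass either (limma adjusted p = 0.261 and 0.343). The falls were those of the bile salt exporter gene Abcb11 (log2 change -1.23, limma adjusted p = 0.00931) and the bile acid uptake gene Slc10a1 (-0.42, 0.0200). The rises were those of Cyp7b1 (0.99, 0.0183) and Hnf4a (0.43, 0.0494), a hepatocyte transcription factor gene. Cyp7b1 was also on the male-biased list, and the groups overlapped for Hnf4a. Hnf4a lost its call in 13 of 18 alternatives, among them those without knockout 3, 9 or 11 or any single wildtype library, each alone (limma adjusted p = 0.0767 to 0.121), or without knockouts 3 and 11 together (0.228). Slc10a1 did not pass with median-ratio scaling (0.0602), quantile normalization (0.239) or the length trend removed (0.0590), nor without wildtype 10 (0.0673), wildtype 12 (0.0523) or knockouts 3 and 11 together (0.0631). Cyp7b1 did not pass without wildtype 1 (0.0596) or wildtype 12 (0.0539).

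The tested genes most like Egfr across the 8 libraries were Ppp1r14a, C8b and Alg8, by the root mean squared difference of log2(FPKM + 1) after each gene was centred on its mean. The differences were 0.156, 0.156 and 0.173, against a spread of 0.484 of Egfr itself on the same scale. C8b, which encodes a chain of complement component 8, was at 329, 323, 267 and 256 FPKM in the knockout libraries and at 145, 191, 183 and 167 FPKM in the wildtype libraries. C8b had its knockout order and its highest wildtype library in common with Egfr, which partly follows from picking the genes nearest to Egfr. Ppp1r14a, at 13.1, 8.67, 9.12 and 9.64 FPKM in the knockout libraries, did not share that knockout order below knockout 3. Alg8, at 6.42, 5.19, 4.40 and 3.32 FPKM in the knockout libraries, shared it but did not pass (limma adjusted p = 0.0736).

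The genes most like Klb were Srsf5, a splicing factor gene, Gm12166 and Cdc42ep4, an effector of CDC42, with differences of 0.061, 0.085 and 0.091 against a spread of 0.376 of Klb. Srsf5 was at 139, 158, 144 and 148 FPKM in the knockout libraries and at 247, 227, 272 and 256 FPKM in the wildtype libraries, with wildtype 3 the lowest of its group and knockout 9 the highest of its own, as for Klb. Those most like Met were Snap47, Paip2b and Fyn (0.058, 0.073 and 0.078, against a spread of 0.194), and those most like Fgfr4 were Midn, Zc3h12a and Trim7 (0.044, 0.048 and 0.056, against 0.103). Likeness was measured over 8 libraries without a test, and a shared order of libraries partly follows from picking the nearest genes. Flat genes lie close to each other on this measure.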

How the data were processed

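RNA of 4 knockout and 4 wildtype liver samples was sequenced after Trizol extraction, DNase treatment and column purification, per the labels' protocols. The submitters' processing notes list TopHat2 2.1.0, HTSeq, Cufflinks 2.2.1 and mm10, giving neither role nor order. The authors deposited FPKM per Ensembl gene, a unit read from the values and the named tools, so no count model was used. No annotation or strand setting was given in these sources, so how reads were assigned where genes overlap is not known. Such genes are those antisense to Egfr and Errfi1, Mien1 beside Erbb2 and the 69 genes that overlap the Ensembl span of Fgfr2. Overlap was counted on whole gene spans, and exons were not compared. The depth was estimated from the FPKM of a single fragment in genes with 1 transcript longer than 1500 bases, taking lengths from GENCODE, and limits precision most for low genes. Names were matched for 24807 genes.

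Groups came from the titles. The log2(FPKM + 1) values of genes averaging 1 FPKM or more were fitted in limma 3.58.1 (R 4.3.3) with genotype as the only term, a mean trend of the variance, Benjamini-Hochberg adjusted two-sided p-values and a threshold of 0.05, and the steps were tested on simulated data. The alternatives changed the pseudocount, the filter, the scaling or the variance model, or added library weights, removal of the length trend (loess, span 0.5), a replicate block and left-out libraries. The members, lists and rules were chosen with earlier results of these data known. Named are the 8 genes, Foxo1, set ligands, receptors and bile acid genes, up to 6 passing genes per list by adjusted p, and the 3 genes most like Egfr, Met, Fgfr4 and Klb. Grb7, Epha1, Dusp6, Dcn and Sdc1 were named after their values were seen. Some list members are named without values.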

Additional observations from a re-analysis of the deposited data

Results flagged for a closer look

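In 10 of 108 groups of 4 libraries of named genes, 1 library lay far from the other libraries of its group, by the gap to its nearest neighbour relative to the whole range. The cut-off is meant to flag about 1 in 20 groups of independent, normally distributed values. Some named genes were picked for likeness to others, so the groups were not independent and cannot be held against that rate. Among the 8 genes followed here 4 groups of 16 were flagged. Met was at 9.23 FPKM in knockout 3 and Klb at 4.79 FPKM in knockout 9, each the highest knockout library. Erbb2 was at 0.570 FPKM in wildtype 3 and Erbb3 at 19.6 FPKM in wildtype 12, each the highest wildtype library. Elsewhere, Jun was at 21.5 FPKM in wildtype 1, C3, a complement and acute phase gene, at 1131 FPKM in wildtype 3, Fyn at 1.79 FPKM in wildtype 12 and Midn at 8.27 FPKM in wildtype 3. Hnf4a was at 69.7 FPKM in knockout 10, the lowest of its group, and Trim7 at 5.09 FPKM in knockout 11. Of these libraries, leaving out wildtype 1 or wildtype 12, each alone, ended the call of Egfr, which was itself not flagged. Leaving out knockout 9 did not end the call of Klb.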

How the results depend on the processing

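Of 18 alternatives Egfr kept its direction in each and its call in 15, with log2 changes of 0.67 to 1.02 (limma adjusted p = 0.0138 to 0.272), and Klb kept its direction in each and its call in 17, with -0.83 to -0.62 (0.00317 to 0.268). Fgfr4, Fgfr2, Erbb3, Met and Errfi1 passed in none of their 18 alternatives. Leaving out single libraries gave 0.67 to 0.95 for Egfr, -0.47 to 0.16 for Errfi1, -0.04 to 0.08 for Fgf1, -0.27 to 0.78 for Fgf21, -0.06 to 0.14 for Fgfr3 and -0.15 to 0.01 for Paip2b, so the last 5 changed sign. So did Errfi1 with median-ratio scaling (0.03) and quantile normalization (0.18), Snap47 with these scalings (0.01 and 0.04) and the length trend removed (0.04), Paip2b with median-ratio scaling (0.02), and, without knockouts 3 and 11, Fgf1 (-0.07), Fgfr3 (-0.04) and Cyp7a1 (-0.04).

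Over all genes 277 were called higher and 1195 lower. With median-ratio scaling the numbers were 484 and 719, with quantile normalization 470 and 652, with the length trend removed 492 and 599, and without knockouts 3 and 11 together 193 and 653. Single libraries left out gave 105 to 361 higher and 598 to 1296 lower. Without wildtype 1 there were 105 and 598, without wildtype 10 there were 151 and 748, without knockout 3 there were 158 and 724, without wildtype 3 162 were higher and without wildtype 12 746 were lower. The cause of these shifts was not tested. As reported, 18.8% of calls were higher, and 40.2%, 41.9% and 45.1% under the first 3 of these alternatives.

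The title numbers 3 and 10 occur in both groups. With the number as a replicate block the fit keeps a single residual degree of freedom, and 1 gene was called higher and 1 lower. Egfr was at 0.74 (limma adjusted p = 0.272), Klb at -0.75 (0.268), Erbb3 at 0.00, Met at 0.08, Fgf1 at -0.05, Fgf21 at -0.44, Snap47 at 0.09 and Paip2b at 0.12. Deviations from the group mean correlated at -0.01 between the libraries numbered 3 and at 0.02 between those numbered 10. Between libraries of unlike number the correlations ran from -0.11 to 0.15. The labels do not say whether libraries of the same number were paired, and correlations within groups this small cannot settle it.

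Erbb2 lay under the filter and was not tested. Its alternatives lay between -0.25 and 0.05, and the scalings, the length trend, the other variance models, library weights, the block and the filter at 5 FPKM gave no value for it. Erbb2, Hgf and Egf are limited by depth.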

Other observations

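Several transcripts beside the receptors were highest in knockouts 3 and 11, the libraries with high acute phase transcripts. Sdc1, which encodes the heparan sulfate proteoglycan syndecan 1 and serves growth factors as a co-receptor, had levels of 67.3, 33.6, 35.0 and 63.9 FPKM in the knockout libraries, against 30.7, 28.5, 26.5 and 29.6 FPKM in the wildtype libraries. All knockout libraries lay above all wildtype libraries, but Sdc1 did not pass (log2 change 0.70, limma adjusted p = 0.0668), nor with knockouts 3 and 11 left out (0.25, 0.158), and it was chosen after its values were seen. Nrg4 and Fgfr1 had the same pair of libraries at the top. Of 30 acute phase genes 3 rose and 0 fell (limma), while among all 10250 tested genes 277 rose and 1195 fell. An unadjusted p under 0.05 in limma was reached by 17 of the 30, and by 3126 of all 10250 tested genes. The 3 that rose were Lrg1, C3 and Fga, which passed in 17, 11 and 8 of 18 alternatives. With knockouts 3 and 11 left out their log2 changes were 1.22, 0.50 and 0.48 (limma adjusted p = 0.00968, 0.0372 and 0.0481), against 2.19, 0.82 and 0.97 over all libraries.

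Endothelial markers also differed between the libraries. Of 12 tested sinusoidal endothelial markers 3 fell and 0 rose (limma), while among all 10250 tested genes 1195 fell and 277 rose. An unadjusted p under 0.05 in limma was reached by 6 of the 12. The summed level of the 14 markers was 57.7, 55.1, 92.1 and 63.2 FPKM in the knockout libraries and 89.4 to 114 FPKM in wildtype libraries. Of 7 tested Kupffer cell markers 0 passed in limma, with 0 at an unadjusted p under 0.05. Among all 10250 tested genes 3126 had such an unadjusted p. Of 2 tested cholangiocyte markers 0 passed, with 2 at an unadjusted p under 0.05, and of 3 tested lymphocyte and neutrophil markers 0 passed, with 2 at an unadjusted p under 0.05 and median deviations from the wildtype mean of 3.6, 0.13, 0.68 and 4.87 in the knockout libraries, against -0.18, 0.15, -0.45 and 0.34 in the wildtype libraries. Their part in the receptor values was not tested.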
